A study of Mus musculus with 6 samples.

Results

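The 4 atypical chemokine receptor genes Ackr1, Ackr2, Ackr3 and Ackr4 were examined with Cxcr4 in endothelial cells (ECs) sorted from mouse lungs with breast cancer metastases. Ackr1 had been chosen by its lower signal after clodronate-liposome treatment in these same arrays, and the other 4 genes were taken with it as its receptor family and as the conventional receptor that shares a ligand with Ackr3. The 5 genes were represented by 9 probe sets, out of 18193 genes and 45037 probe sets on the array. Clodronate-liposome mice received liposomes loaded with clodronate, a drug toxic to the phagocytic cells that take it up, and PBS-liposome mice received liposomes loaded with PBS. Both groups were female NSG mice, an immunodeficient strain, 6 to 8 weeks old, whose lung metastases had grown from intravenously injected MDA-MB-231-LM2 human breast cancer cells. Liposomes were given on days 14, 16 and 18, lungs were collected on day 20, and CD31+ cells were sorted after removal of cells positive for CD45, CD11b, EpCAM, CD140a, CD140b or the tumor cells' GFP. Each group had 3 arrays. The labels call the replicates biological without giving the number of mice in each, so the tests measure the spread between these samples. An NSG host still has macrophages and neutrophils but lacks mature lymphocytes.

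Atypical chemokine receptors bind chemokines without starting the G protein signaling by which conventional receptors drive cell migration. They instead take up, transport or present the ligand, and so shape chemokine gradients at the vessel wall. Ackr1, the Duffy antigen receptor, is carried by venular ECs and by erythroid cells, Ackr2 scavenges inflammatory CC chemokines, Ackr3 takes up Cxcl12 and Cxcl11, and Ackr4 scavenges Ccl19, Ccl21 and Ccl25. Cxcr4 is the signaling receptor of Cxcl12.

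Ackr1 was lower in every clodronate-liposome array than in any PBS-liposome array. Its 1 probe set (1432273_a_at) gave log2 signals of 10.01, 10.23 and 9.79 in clodronate-liposome ECs, against 11.47, 11.34 and 11.31 in PBS-liposome ECs. The distance between the lowest PBS-liposome value and the highest clodronate-liposome value was 1.08 on the log2 scale. The means were 10.01 ± 0.22 in clodronate-liposome ECs and 11.37 ± 0.082 in PBS-liposome ECs (SD, n = 3 each), a 2.57-fold lower signal and a log2 difference of -1.36 (SE 0.13). As the gene was chosen for this difference, no test is given for it. With any 1 array left out, the difference lay between -1.47 and -1.25. In RNA from a sorted population, fewer cells of a type and less RNA per cell cannot be told apart.

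**Figure D1:**
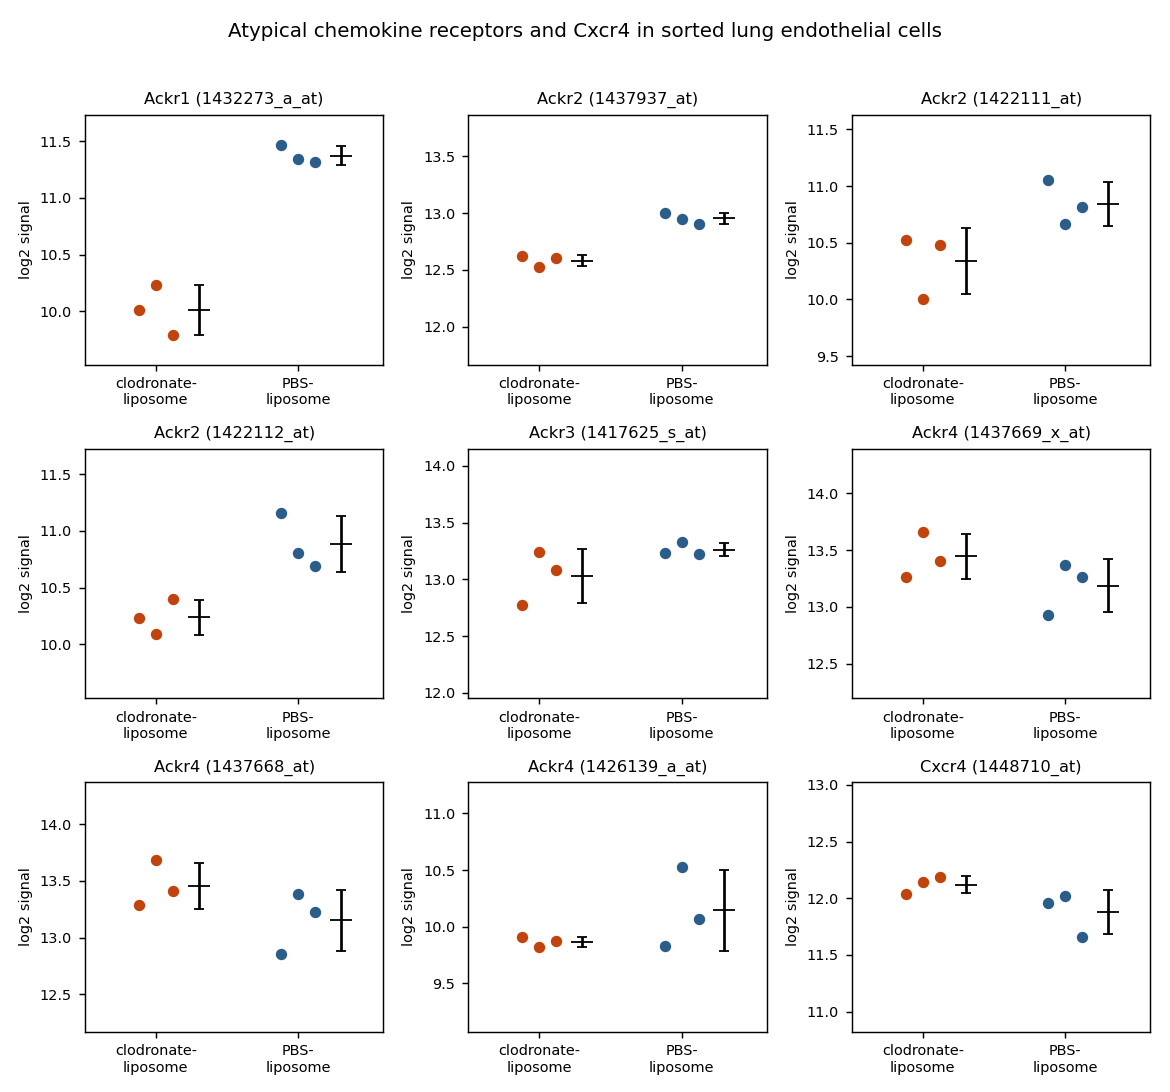
Log2 signal (vertical axes, each spanning the same log2 range) of the 9 probe sets of the 5 genes in the clodronate-liposome arrays (orange, replicates 1 to 3) and the PBS-liposome arrays (blue), with the mean and SD of each group in black. Ackr1 and the 3 Ackr2 probe sets are lower in all clodronate-liposome arrays, Ackr3 and Ackr4 overlap between the groups, and Cxcr4 is separated by 0.0134.

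Ackr2, also known as D6, was lower in all 3 of its probe sets, none of which passed the adjusted p threshold of 0.05 (limma, Benjamini-Hochberg over the 45037 probe sets). The brightest probe set (1437937_at) gave log2 signals of 12.62, 12.52 and 12.60 in clodronate-liposome ECs and 13.00, 12.95 and 12.91 in PBS-liposome ECs. The groups did not overlap, and the replicates of each lay close together, with an SD of 0.049 in both. The log2 difference was -0.37 (SE 0.090, 95% confidence interval -0.58 to -0.16, adjusted p = 0.175 by limma), 1.29-fold lower. The other probe sets showed the same direction. Probe set 1422111_at gave 10.53, 10.0003 and 10.48 in clodronate-liposome ECs and 11.05, 10.66 and 10.82 in PBS-liposome ECs, a log2 difference of -0.51 (SE 0.17, limma adjusted p = 0.314). Probe set 1422112_at gave 10.23, 10.09 and 10.39 in clodronate-liposome ECs and 11.16, 10.80 and 10.69 in PBS-liposome ECs, a log2 difference of -0.65 (SE 0.15, limma adjusted p = 0.154). Neither pair of groups overlapped. The 3 probe sets read transcripts of 1 gene in the same arrays and are not independent of each other. With a trended and robust variance in limma, the difference of the brightest probe set passed the threshold (adjusted p = 0.0345), and with 1 array left out it ranged from -0.40 to -0.34 without passing.

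Ackr3, a scavenger of Cxcl12, did not separate the groups. Its probe set (1417625_s_at), of a kind that can also match related transcripts, gave 12.77, 13.24 and 13.08 in clodronate-liposome ECs and 13.23, 13.33 and 13.23 in PBS-liposome ECs. Clodronate-liposome replicate 1 was the lowest, and replicate 2 lay within the PBS-liposome range. The log2 difference was -0.23 (SE 0.13, 95% confidence interval -0.54 to 0.073, limma adjusted p = 0.598). Without clodronate-liposome replicate 1 it was -0.10.

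Ackr4, the scavenger of chemokines that guide dendritic cells, overlapped between the groups in all 3 of its probe sets, and these disagreed in sign. The brightest, 1437669_x_at, is of a kind that can also match other transcripts. It gave 13.27, 13.66 and 13.40 in clodronate-liposome ECs and 12.93, 13.37 and 13.26 in PBS-liposome ECs. The groups differed by 0.26 on the log2 scale (SE 0.15, limma adjusted p = 0.619, 95% confidence interval -0.096 to 0.61). Probe set 1437668_at differed by 0.30 (SE 0.16, limma adjusted p = 0.568) and followed the same order of arrays within each group. Probe set 1426139_a_at gave 9.91, 9.82 and 9.88 in clodronate-liposome ECs and 9.83, 10.53 and 10.07 in PBS-liposome ECs, a log2 difference of -0.28 (SE 0.17, limma adjusted p = 0.634). PBS-liposome replicate 2 was the highest of these 6 values. No direction can be given for the gene from these probe sets.

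Cxcr4, through which Cxcl12 acts on ECs and leukocytes, was slightly higher in clodronate-liposome ECs, with a difference that did not pass the threshold. Its probe set (1448710_at) gave 12.04, 12.14 and 12.18 in clodronate-liposome ECs and 11.96, 12.02 and 11.66 in PBS-liposome ECs. The groups were separated by only 0.0134, and PBS-liposome replicate 3 lay below the other 5 arrays. Clodronate-liposome minus PBS-liposome was 0.24 (SE 0.12, 95% confidence interval -0.040 to 0.52, limma adjusted p = 0.539), and 0.13 without PBS-liposome replicate 3.

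Of the 9 probe sets, 4 were lower in clodronate-liposome ECs without overlap of the groups, 3 of them those of Ackr2 and 1 that of Ackr1. Over the whole array 8.04% of probe sets were lower in this way. Ackr1 was chosen for its fall and the 3 Ackr2 probe sets read 1 gene, so the 4 of 9 cannot be read as a trait of the family. Of the 4 genes taken with Ackr1, only Ackr2 was lower in this way. Only the Cxcr4 probe set was higher without overlap, where 7.97% of all probe sets were. The Ackr1 probe set, chosen for its difference, was the 1 of 9 with an adjusted p under 0.05 in limma, where 0.306% of all probe sets lay, and nothing is read from that count.

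**Figure D2:**
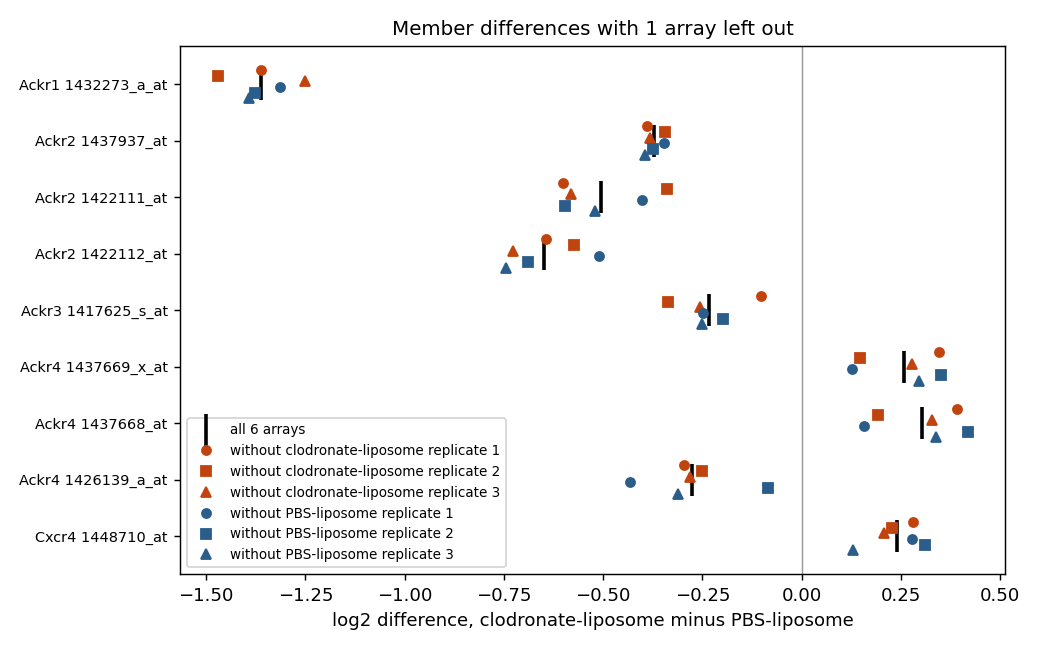
Log2 difference, clodronate-liposome minus PBS-liposome (horizontal axis), of each of the 9 probe sets with all 6 arrays (black line) and with 1 array left out (symbols, orange for a clodronate-liposome and blue for a PBS-liposome array). No probe set changed sign, and Ackr1 stayed between -1.47 and -1.25.

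The deposited values carry no probe positions, and 2 of the genes share their locus with another gene in RefSeq. Ackr1 lies within the span of Cadm3, a cell adhesion gene on the same strand. The brightest Cadm3 probe set differed by -0.24 (SE 0.11, limma adjusted p = 0.485), and the other 2 by -0.06 and -0.23. Ackr4 lies within Acad11, an acyl-CoA dehydrogenase gene on the opposite strand, whose probe sets differed by -0.03 (SE 0.11) and -0.12 (SE 0.093). None of these reached the size of the Ackr1 difference.

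The DNA before the start site is shown for Ackr1 and Ackr2, the genes whose probe sets were all lower without overlap, and for Cxcr4, which was higher without overlap. The sequences are the 250 bases before the RefSeq gene start in build GRCm38.p6, read 5′ to 3′ on the gene's own strand, at chr1:173333504-173333753 (minus strand) for Ackr1, chr9:121898105-121898354 (plus strand) for Ackr2 and chr1:128592300-128592549 (minus strand) for Cxcr4. Capitals mark matches to any of 6 motifs searched on both strands, which are spelled out after the sequences.
Ackr1: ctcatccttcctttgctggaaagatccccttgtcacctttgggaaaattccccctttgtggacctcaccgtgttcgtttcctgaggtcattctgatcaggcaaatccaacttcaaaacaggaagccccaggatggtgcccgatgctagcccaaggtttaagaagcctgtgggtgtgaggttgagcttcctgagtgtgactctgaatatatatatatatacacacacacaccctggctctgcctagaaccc
Ackr2: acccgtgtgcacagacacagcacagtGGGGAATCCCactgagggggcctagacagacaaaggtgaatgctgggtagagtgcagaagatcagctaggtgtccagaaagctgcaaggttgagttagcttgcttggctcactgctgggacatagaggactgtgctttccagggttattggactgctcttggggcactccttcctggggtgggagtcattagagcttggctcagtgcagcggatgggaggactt
Cxcr4: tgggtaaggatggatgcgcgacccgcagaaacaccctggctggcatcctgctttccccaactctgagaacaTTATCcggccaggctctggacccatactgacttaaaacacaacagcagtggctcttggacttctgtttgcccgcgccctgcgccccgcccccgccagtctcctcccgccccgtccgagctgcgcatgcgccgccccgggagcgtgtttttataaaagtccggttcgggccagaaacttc

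The Ackr2 sequence held 1 kappaB match on the reverse strand, 224 to 215 bases before the start. The Cxcr4 sequence held 1 GATA match, also on the reverse strand, 179 to 175 bases before the start. Of the sequences not shown, that of Ackr4 held 1 hypoxia response match and that of Ackr3 none. The Ackr1 sequence held no match, which says only that these letters are not in this window. The kappaB motif, bound by NF-kappaB, was searched as GGGA and CC with any 4 bases between them, and 17.6% of 32851 promoter sequences of the same length held it. The GATA motif, bound by GATA factors, was searched as GATAA and was held by 22.6% of these promoters. The hypoxia response element was searched as ACGTG and was held by 16.6%. The interferon-stimulated response element was searched as GAAA followed after any 2 bases by GAAA (2.98%), the gamma-activated site as TTC and GAA with any 3 bases between them (7.02%), and the AP-1 motif as TGANTCA (6.75%). A match is a description of the sequence and not a binding site.

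Among the genes listed as ligands of the 5 receptors, Cxcl9 and Cxcl10, best known as ligands of Cxcr3, were lower in clodronate-liposome ECs. Of 25 ligand genes listed, 23 were measured and 2 passed the threshold, Cxcl9 and Cxcl10, both lower. Over all 18193 genes, 63 passed as lower and 16 as higher. The median log2 difference of the ligands was -0.096, against -0.0031 over all genes. Cxcl10, which attracts activated lymphocytes through Cxcr3, gave 9.26, 9.52 and 9.32 in clodronate-liposome ECs and 10.96, 10.87 and 10.85 in PBS-liposome ECs. Cxcl9, another Cxcr3 ligand, gave 6.999, 7.37 and 6.73 in clodronate-liposome ECs and 8.59, 8.53 and 8.76 in PBS-liposome ECs. Neither gene's groups overlapped, and the separation exceeded 1 on the log2 scale in both. The log2 differences were -1.53 (SE 0.11, limma adjusted p = 0.00636) for Cxcl10 and -1.60 (SE 0.17, limma adjusted p = 0.0166) for Cxcl9, whose dimmer probe set differed by -0.49 (SE 0.14, limma adjusted p = 0.244). Cxcl10 passed the threshold with any 1 array left out, but with the arrays' hybridization controls as a covariate, a setting chosen after the data had been seen, neither Cxcl10 (-1.44, adjusted p = 0.0941) nor Cxcl9 (-1.42, adjusted p = 0.149) passed in limma. Cxcl9 passed without clodronate-liposome replicate 2 (adjusted p = 0.0281) and missed it without any other array (differences -1.64 to -1.44, adjusted p 0.0544 to 0.0860).

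Cxcl9 and Cxcl10 stood in the list of 13 chemokines bound by Ackr1, although both are best known as ligands of Cxcr3 and neither is among the chemokines most typical of Ackr1. The other 11 did not pass the threshold. Among them, Cxcl11 had the largest difference, -0.84 (SE 0.16, limma adjusted p = 0.0958), followed by Ppbp at -0.44 (SE 0.20, limma adjusted p = 0.497). Ccl2 and Ccl7, which attract monocytes, had differences of -0.29 (SE 0.12, limma adjusted p = 0.442) and -0.34 (SE 0.12, limma adjusted p = 0.333). Cxcl1, which attracts neutrophils, had 0.36 (SE 0.18, limma adjusted p = 0.526). The median of the 13 was -0.28, with 8 differences negative and 5 positive. In limma 5 of the 13 were at unadjusted p under 0.05, where 1824 of all 18193 genes were. Without overlap of the groups, 6 of the 13 were lower and 0 higher, where 1591 and 1362 of all genes were.

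Of the 9 measured chemokines of Ackr2, 0 passed the threshold in limma (2 at unadjusted p under 0.05, Ccl2 and Ccl7), with a median of -0.096 and differences between -0.34 and 0.064. Among the 5 ligands of Ackr3, Cxcl11 had the largest difference. It gave 6.73, 6.51 and 6.67 in clodronate-liposome ECs and 7.31, 7.30 and 7.82 in PBS-liposome ECs, without overlap. The log2 difference was -0.84 (SE 0.16, limma adjusted p = 0.0958), and a second probe set gave -0.31 (SE 0.092, limma adjusted p = 0.267). Cxcl12, the ligand that Ackr3 and Cxcr4 share, was at 13.36, 13.27 and 13.31 in clodronate-liposome ECs and 13.37, 13.42 and 13.44 in PBS-liposome ECs, a difference of -0.10 (SE 0.089, limma adjusted p = 0.782). Its other probe sets differed by 0.17 and -0.02, so that no direction can be given. Mif, a cytokine that also binds Cxcr4, differed by 0.09 (SE 0.10, limma adjusted p = 0.832). Adm, the peptide adrenomedullin that Ackr3 takes up, differed by -0.18 (SE 0.21, limma adjusted p = 0.837). Of the 4 chemokines of Ackr4, Ccl25 (-0.18, SE 0.11) and Ccl20 (-0.01, SE 0.13) were measured, and neither passed. A second Ccl25 probe set differed by 0.23 (SE 0.12), so that no direction can be given for this gene.

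**Figure D3:**
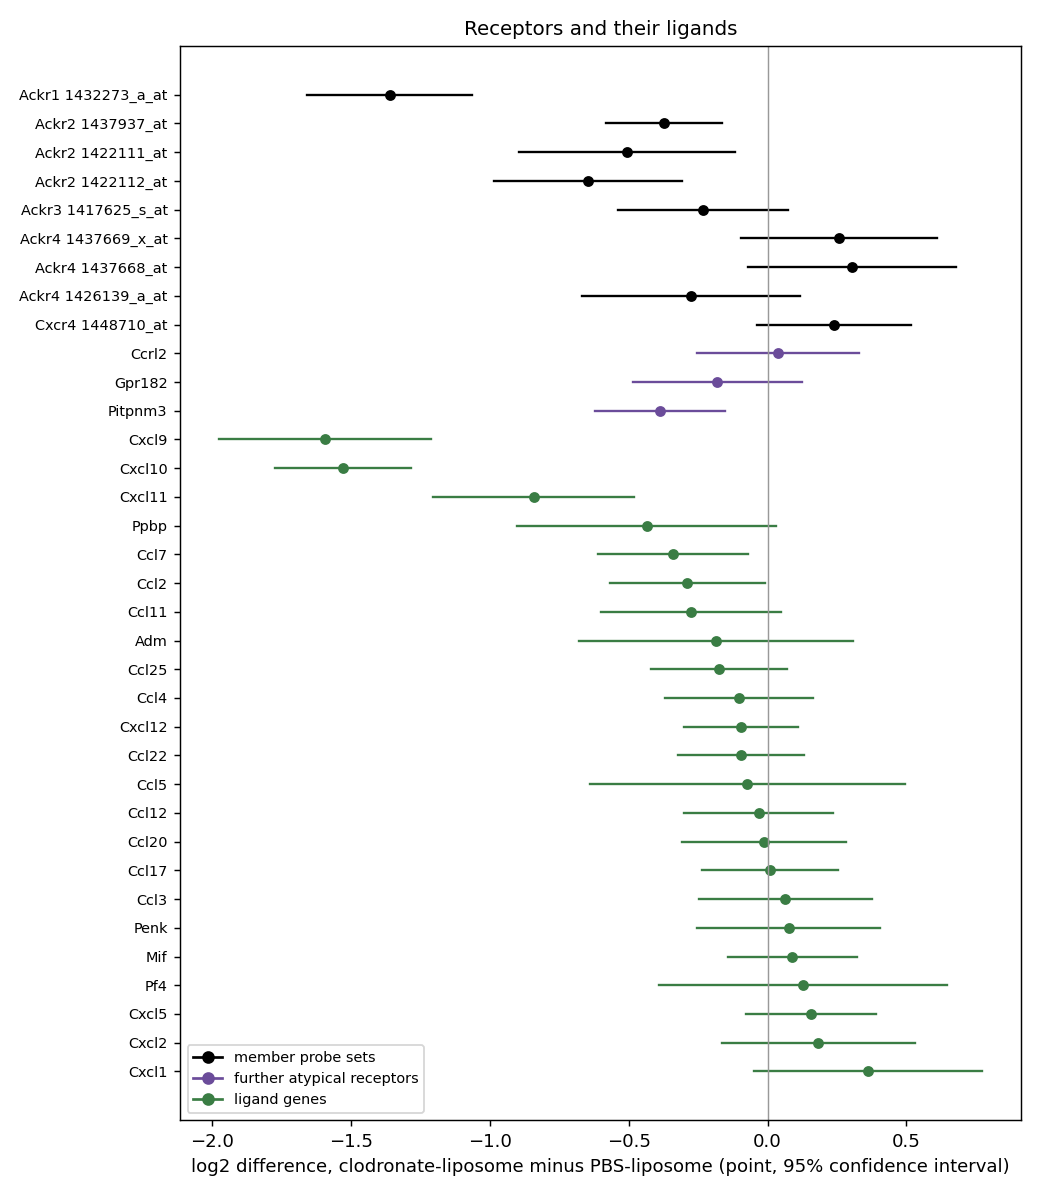
Log2 difference, clodronate-liposome minus PBS-liposome, with its 95% confidence interval (horizontal axis), of the 9 probe sets of the 5 receptors (black), 3 further receptors described as atypical (purple) and the 23 measured ligand genes (green, brightest probe set). Cxcl9 (-1.60), Cxcl10 (-1.53) and Ackr1 (-1.36) lie farthest below 0.

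Further receptors that have been described as atypical did not pass the threshold. Pitpnm3, a phosphatidylinositol transfer protein reported to bind Ccl18 in humans, gave 8.78, 8.88 and 8.94 in clodronate-liposome ECs and 9.34, 9.28 and 9.15 in PBS-liposome ECs, a difference of -0.39 (SE 0.10, limma adjusted p = 0.201) without overlap. Its other 3 probe sets ranged from -0.35 to 0.13. Gpr182, an endothelial receptor that takes up chemokines, differed by -0.18 (SE 0.13, limma adjusted p = 0.701), and Ccrl2, which presents chemerin, by 0.04 (SE 0.13, limma adjusted p = 0.953). Of 15 measured conventional chemokine receptors other than Cxcr4, 0 passed in limma (1 at unadjusted p under 0.05), with a median of -0.096. Cxcr5, the receptor of Cxcl13, had the smallest adjusted p of them, 0.223 in limma, at a difference of 0.67 (SE 0.19). Cx3cr1, a receptor of monocytes, differed by -0.46 (SE 0.29, limma adjusted p = 0.643) with overlapping groups.

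Genes that act downstream of these receptors showed no call. Of 13 measured genes of receptor desensitization, scavenging and Gi signaling, 0 passed in limma (2 at unadjusted p under 0.05), and their median was 0.02. Arrb1 and Arrb2, the beta-arrestins through which receptors are internalized, differed by -0.19 (SE 0.095, limma adjusted p = 0.526) and 0.30 (SE 0.12, limma adjusted p = 0.415). Gnai1, an inhibitory G protein subunit, gave 11.74, 12.09 and 11.78 in clodronate-liposome ECs and 11.34, 11.49 and 11.37 in PBS-liposome ECs, a difference of 0.47 (SE 0.12, limma adjusted p = 0.196). In the adrenomedullin axis, 0 of 5 genes passed in limma (1 at unadjusted p under 0.05). Ramp3, a subunit of the adrenomedullin receptor, had a difference of -0.56 (SE 0.17, limma adjusted p = 0.274).

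Ackr1 was next set beside genes of venous and venular endothelium, the vessel type that carries it. Of these 14 genes, 2 were lower past the threshold, 0 were higher, and the median was -0.29. Over all 18193 genes, 63 were lower and 16 higher past the threshold, and the median was -0.0031. Like the other gene lists, this list was chosen with earlier results of these data known. Its counts and median therefore describe the listed genes and are not a test. Selp, the P-selectin that ECs store and bring to their surface to capture leukocytes, gave 10.60, 11.04 and 10.48 in clodronate-liposome ECs and 11.73, 11.75 and 11.74 in PBS-liposome ECs. The difference was -1.03 (SE 0.15, limma adjusted p = 0.0428), and its other probe sets also passed at -0.96 and -0.85 (adjusted p = 0.0312 and 0.0340). Lbp, the lipopolysaccharide-binding protein, gave 11.26, 11.40 and 11.40 in clodronate-liposome ECs and 11.98, 12.04 and 12.13 in PBS-liposome ECs, a difference of -0.70 (SE 0.097, limma adjusted p = 0.0374). As for Ackr1, no clodronate-liposome value of either gene reached the PBS-liposome range. Selp passed without clodronate-liposome replicate 2 (adjusted p = 0.0289) and missed without any other array (differences -1.04 to -0.92, adjusted p 0.138 to 0.162). With the hybridization controls as a covariate, Selp (-0.83, adjusted p = 0.191) and Lbp (-0.67, adjusted p = 0.198) did not pass in limma. Lbp missed without each of the 6 arrays (differences -0.73 to -0.65, adjusted p 0.0785 to 0.153), and its dimmer probe set differed by -0.17.

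The remaining venous genes did not pass. Cysltr1, a receptor for leukotrienes, had a difference of -0.78 (SE 0.20, limma adjusted p = 0.201) and of -1.08 in its second probe set (limma adjusted p = 0.0885). Sele, the E-selectin of activated ECs, had -0.62 (SE 0.20, limma adjusted p = 0.298), Bst1 -0.38 (SE 0.11, limma adjusted p = 0.237) and Tll1 -0.52 (SE 0.21, limma adjusted p = 0.414). Cysltr1, Sele and Bst1 were lower without overlap, while the groups of Tll1 overlapped. Prss23 lay on the other side, at 0.34 (SE 0.11, limma adjusted p = 0.274), and was higher without overlap. Vcam1 (0.25, SE 0.14) and Vwf (0.05, SE 0.13) also had positive differences. Those of Ephb4 (-0.0063, SE 0.13) and Icam1 (-0.04, SE 0.13) were negative but near 0. Slc6a2, Nr2f2 and Il6st had -0.39, -0.21 and -0.12 in their brightest probe sets, and of these only Nr2f2 was lower without overlap. In the whole list 6 genes were lower and 1 higher without overlap. Over all 18193 genes, 1591 were lower and 1362 higher in this way. The genes of venous endothelium thus did not all follow the direction of Ackr1, with 11 of 14 differences negative and 3 positive. Over all genes, 9268 of 18193 differences were negative.

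**Figure D4:**
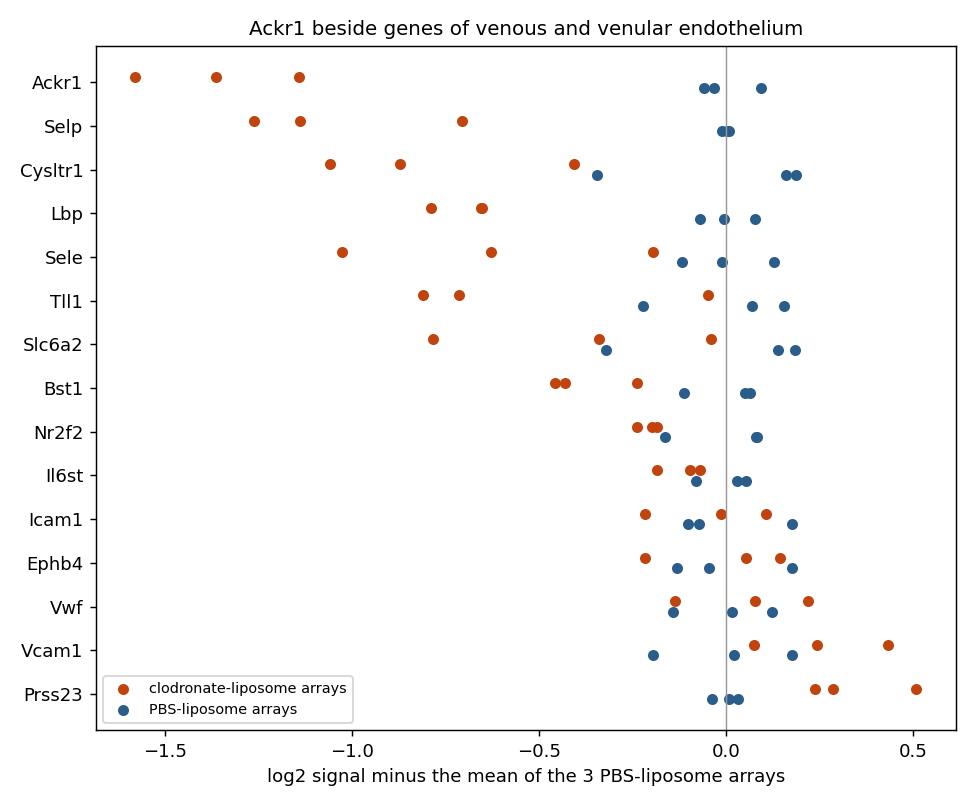
Log2 signal minus the mean of the 3 PBS-liposome arrays (horizontal axis) of Ackr1 and the 14 genes of venous and venular endothelium in the clodronate-liposome (orange) and PBS-liposome (blue) arrays. The clodronate-liposome values of Ackr1 and of 6 venous genes, Selp and Lbp among them, lie below all PBS-liposome values of the gene. Those of Prss23 lie above them.

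Genes of the other vessel types did not pass. In limma 0 of 10 arterial genes (median -0.06), 0 of 7 general capillary genes (median -0.0043), 0 of 6 aerocyte capillary genes (median 0.04) and 0 of 6 lymphatic genes (median 0.01) were past the threshold. At unadjusted p under 0.05 these counts were 0, 0, 2 and 2 in the same order. Within the aerocyte list, Ednrb was lower without overlap in all 3 of its probe sets. Its differences were -0.25 (limma adjusted p = 0.412), -0.65 (limma adjusted p = 0.249) and -0.60 (limma adjusted p = 0.132). Apln was higher without overlap, at 0.40 (SE 0.12, limma adjusted p = 0.283). A fall without overlap was thus not confined to the venous list. Within the lymphatic list, Mmrn1 and Reln had differences of 0.47 (SE 0.14, limma adjusted p = 0.267) and 0.38 (SE 0.13, limma adjusted p = 0.331) without overlap.

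The labelled cell type was checked against its markers, and other cells that a CD31 gate could hold against theirs. The 10 pan-endothelial markers had mean log2 signals of 13.0 to 13.2 in clodronate-liposome arrays and 13.0 to 13.1 in PBS-liposome arrays, with a median difference of 0.05 and 0 past the threshold in limma or at unadjusted p under 0.05. All 10 pan-leukocyte markers had negative differences in their brightest probe sets (median -0.37), and 5 were lower without overlap. Over all 18193 genes, 1591 were lower in this way. Of the 10 markers, 0 passed the threshold in limma (6 at unadjusted p under 0.05). Their mean signal was 8.30 to 8.46 in clodronate-liposome arrays and 8.58 to 8.91 in PBS-liposome arrays. Itgb2, Ptprc (CD45) and Fermt3 had -0.61 (SE 0.16), -0.58 (SE 0.16) and -0.46 (SE 0.11). A second Ptprc probe set differed by -0.05, and the other Fermt3 probe sets by -0.31, -0.04 and -0.06. Ackr1 and the pan-leukocyte markers were lower in the same arrays, and the part of remaining leukocyte RNA in the Ackr1, Cxcl9 and Cxcl10 values was not tested. The 13 macrophage and monocyte markers had mean signals of 8.18 to 8.34 in clodronate-liposome arrays and 8.16 to 8.54 in PBS-liposome arrays. Of these, 9 had negative differences (median -0.083), 3 were lower without overlap and 0 passed in limma (2 at unadjusted p under 0.05). Csf1r, the receptor on which macrophages depend for survival, was lower without overlap in its 3 probe sets, with differences of -0.65 (SE 0.12, limma adjusted p = 0.101), -1.24 (SE 0.22, limma adjusted p = 0.0834) and -0.17 (SE 0.097, limma adjusted p = 0.595). C1qc, a complement subunit made by macrophages, differed by -0.25 (SE 0.098, limma adjusted p = 0.403), also without overlap. Platelets carry CD31 and store P-selectin, the product of Selp. The 7 platelet markers had mean signals of 8.27 to 8.72 in clodronate-liposome arrays and 8.57 to 8.81 in PBS-liposome arrays, 6 had negative differences (median -0.23), and 0 passed in limma (1 at unadjusted p under 0.05). Itga2b, the platelet integrin subunit, differed by -0.56 (SE 0.13, limma adjusted p = 0.163) and Ppbp, a platelet chemokine, by -0.44 (SE 0.20, limma adjusted p = 0.497), both lower without overlap. The part of macrophage or platelet RNA in the Ackr1, Selp, Cxcl9 and Cxcl10 values was not tested. The 7 measured erythroid markers, which matter because erythroid cells carry Ackr1, had mean signals of 8.23 to 8.48 in clodronate-liposome arrays and 8.31 to 8.55 in PBS-liposome arrays, with a median difference of -0.02, 4 negative differences and 0 past the threshold in limma (1 at unadjusted p under 0.05). Alas2, the enzyme that starts heme synthesis in erythroid cells, differed by -0.68 (SE 0.30, limma adjusted p = 0.471) with overlapping groups. Slc4a1, the erythrocyte anion exchanger, differed by -0.49 (SE 0.15, limma adjusted p = 0.265) without overlap in its brightest probe set, and by 0.14 and -0.02 in the other 2. The part of erythroid RNA in the Ackr1 values was not tested. The 6 mesothelial markers read 8.89 in clodronate-liposome replicate 3, against 7.25 to 7.65 in the other clodronate-liposome arrays and 7.39 to 7.71 in PBS-liposome arrays, and without that array the Ackr1 difference was -1.25. Of 10 epithelial, 10 fibroblast and mural, 8 neutrophil and 7 lymphocyte markers, 0 passed in limma, with medians of 0.04, -0.20, 0.03 and -0.0063. At unadjusted p under 0.05 these counts were 0, 1, 0 and 1. Epithelial Sftpc gave 8.49, 12.78 and 11.47 in clodronate-liposome ECs and 11.38, 10.14 and 11.35 in PBS-liposome ECs. Epithelial Scgb1a1 gave 11.28, 7.53 and 7.89 against 10.37, 10.06 and 8.76. The part of such RNA was not tested. On arrays a dim signal has no true 0, so absence cannot be stated for any of these genes. The added hybridization controls, whose level should not depend on the sample, read 11.91, 12.20 and 11.94 in clodronate-liposome arrays and 12.11, 12.24 and 12.12 in PBS-liposome arrays. With these controls as a covariate, a setting chosen after the data had been seen, the differences were -1.24 for Ackr1, -0.41 for Ackr2, -0.07 for Ackr3, 0.46 for Ackr4 and 0.30 for Cxcr4.

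Genes whose level followed Ackr1 or Cxcr4 most closely over the 6 arrays were found by the root mean square distance between mean-centred log2 profiles. For Ackr1, whose own profile had a root mean square of 0.694, they were Mx2 (distance 0.0938), an interferon-induced GTPase, Myc (0.107), a growth-promoting transcription factor, Cxcl10 (0.121), Abcc3 (0.127), an export pump, and Gadd45g (0.152), a stress-response gene. Mx2 gave 8.06, 8.28 and 7.98 in clodronate-liposome ECs and 9.56, 9.45 and 9.63 in PBS-liposome ECs. Myc gave 9.46, 9.87 and 9.55 in clodronate-liposome ECs and 10.99, 10.99 and 11.03 in PBS-liposome ECs. In both, as in Ackr1, clodronate-liposome replicate 2 was the highest of its group. The differences of the 5 genes lay between -1.53 and -1.16, and as the genes were picked for their likeness to Ackr1 no test is given for them.

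For Cxcr4, with a root mean square of 0.169, the nearest genes were Azin1 (distance 0.0371), a regulator of polyamine synthesis, Pikfyve (0.0451), a phosphoinositide kinase, Vhl (0.0459), the von Hippel-Lindau ubiquitin ligase subunit, Invs (0.0479), a ciliary protein, and Rab26os (0.0481), an antisense transcript. All 5 had their lowest value in PBS-liposome replicate 3, as Cxcr4 did, and their differences lay between 0.18 and 0.23. A second Vhl probe set differed by -0.26. The profiles were compared over 18193 genes and 6 arrays, and nothing is said of shared control.

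**Figure D5:**
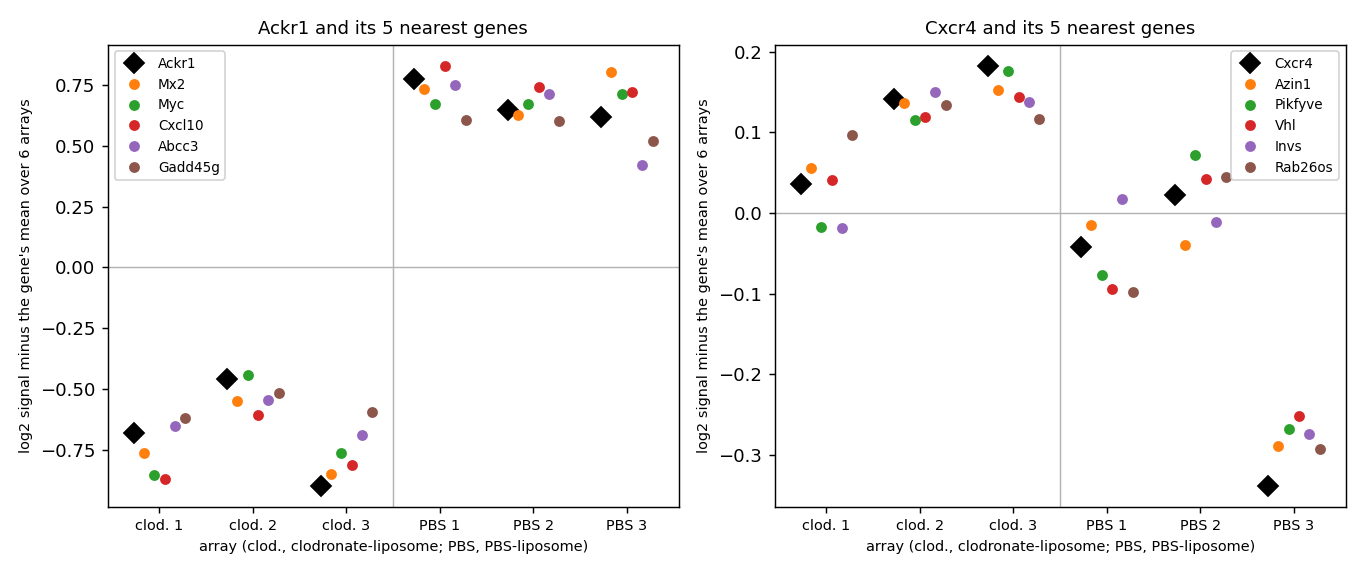
Log2 signal minus each gene's mean over the 6 arrays (vertical axes, on different scales) for Ackr1 (left) and Cxcr4 (right), as black diamonds, with the 5 genes nearest to each, in the 3 clodronate-liposome and then the 3 PBS-liposome arrays. The Ackr1 profiles split by treatment, and all Cxcr4 profiles are lowest in PBS-liposome replicate 3.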

How the data were processed

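The deposited table held log2 values obtained by the authors with robust multiarray averaging of Affymetrix mouse genome arrays, a method that subtracts background, makes array distributions equal and merges the probes of a probe set. Values were used as deposited, and every array had a median of 8.13. After 64 control probe sets had been set aside, 45037 entered the tests with no filter on signal. The platform annotation gave 34945 of them 1 gene symbol, 932 several and 9160 none. A gene was represented by its brightest probe set annotated to it alone. Differences, clodronate-liposome minus PBS-liposome, came from lmFit and eBayes of limma 3.58.1 (R 4.3.3; two-sided tests, no covariates), with Benjamini-Hochberg adjustment over all 45037 probe sets and a threshold of 0.05. The 3 arrays per group limit the precision. The members and gene lists were chosen with earlier results of these data known. The genes named were all members in every probe set and the whole venous list. Of each other list, they were those past the threshold and up to 5 with the smallest p. Any ligand or further atypical receptor and the 5 genes nearest to Ackr1 and Cxcr4 could be named too. Sftpc was named for its spread between arrays. Promoter sequences came from RefSeq. The fit was also tested on simulated data for this comparison with 45037 probe sets, in which 5.97% of changes of 0.5, 68.7% of changes of 1 and 87.9% of changes of 2 on the log2 scale were recovered. Alternatives covered the choice of probe set, a filter on low signal, normalization, the variance model, array weights, the replicate number and each array left out.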

Additional observations from a re-analysis of the deposited data

How the results depend on the processing

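With 1 array left out, the differences ranged from -1.47 to -1.25 for Ackr1, -0.40 to -0.34 for Ackr2, -0.34 to -0.10 for Ackr3, 0.13 to 0.35 for Ackr4 and 0.13 to 0.31 for Cxcr4, with no change of sign. Under the other settings all 5 kept their sign except Ackr4, which was -0.28 with the most variable probe set in place of the brightest. Ackr2 (-0.37) passed the threshold with a trended and robust variance. The count of probe sets past the threshold, 138 with all arrays, was 244 without those below the median signal, 248 with a trended and robust variance, 234 with array weights, 0 in limma with the hybridization controls as a covariate, a setting added after the data had been seen (4710 at unadjusted p under 0.05), and 6 to 73 with 1 array left out. With the filter on signal 1 of the 2 ligand genes passed, and the other, Cxcl9, was removed by the filter and not tested. Of the 2 ligand genes, 0 passed with the hybridization controls (5 unadjusted) and 1 to 2 with 1 array left out. Of the conventional receptors, 0 passed in limma under any setting (0 to 3 unadjusted). Of the 2 venous genes, 0 passed with the hybridization controls (6 unadjusted) and 0 to 1 with 1 array left out. Same-numbered arrays deviated together only weakly (correlations 0.0751, 0.0699 and 0.0361 over probe sets, each array closest to its own number), so the numbers were not taken as pairs. With the replicate number as a block, 0 probe sets, 0 ligand genes and 0 venous genes passed in limma (5033, 5 and 7 at unadjusted p under 0.05). Each replicate number occurs once in each group, so the block cannot change a difference, only its SE and p. The Ackr1 difference of -1.36 had an SE of 0.12 with the block. Ackr2 and Cxcl10 had adjusted p values of 0.268 and 0.0507 by limma. With the most variable probe set, Cxcl12 was 0.17, Ccl25 0.23, Slc4a1 0.14 and Vhl -0.26. With the hybridization controls, Adm was 0.091 and Ccrl2 -0.0048. With 1 array left out, Ccrl2 ranged from -0.065 to 0.15 and Acad11 from -0.11 to 0.020, its other positive values being 0.011 and 0.0030. The causes were not tested. Differences of 0.5 on the log2 scale are mostly below what 3 arrays per group can call.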
